A study of Mus musculus with 216 samples.

Results

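Heart and skeletal muscle of young mice were compared, 12 libraries of each among the 216 of a circadian study of 6 tissues. The libraries were chosen by their labels, 1 of each tissue at every circadian time from 18 to 62 h in steps of 4 h, and paired by time. All 24 came from male C57B6/J-NIA mice of 6 months, and no allele or treatment is labelled in either group. For comparison, libraries of heart and muscle at 18 and 27 months and of lung at 6 months were used where named. Each library pooled 2 samples. The labels used here do not say which skeletal muscle was taken, whether the atria were kept with the heart, or whether the heart and muscle of 1 time came from the same mice. With 1 library a time, the p-values below measure the spread between these 24 libraries. Levels are given as CPM, the count of a gene per 1000000 counts of its library (M below is that number), and as the lowest, highest and median of the 12 libraries.

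Heart and skeletal muscle share a contractile plan: myosin thick filaments pull on actin thin filaments once calcium binds troponin. They build it largely from different members of the same gene families. Heart muscle releases calcium from its store in response to calcium entering from outside, is paced by its own action potential and burns mostly fatty acids. A skeletal fibre is fired by a nerve, couples the membrane voltage directly to calcium release, and in fast fibres draws on glycogen. Cardiac fate is linked to factors such as Gata4, Nkx2-5 and Tbx20, and skeletal fate to MyoD and its relatives.

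The labels were checked with 1 marker for each tissue. Myh6, the alpha myosin heavy chain of heart muscle (chromosome 14, 54941921 to 54966927, minus strand, GRCm38), had 15899 to 21878 CPM (median 19466) in heart and 1.48 to 7.13 CPM (median 3.73) in muscle. Myh4, the fast 2B heavy chain (chromosome 11, 67238029 to 67260446, plus strand), had 0 to 0.368 CPM (median 0.128) in heart and 19397 to 29731 CPM (median 25575) in muscle. The tissues did not overlap for either gene, and all 24 libraries lay on the side of their label. In RNA of whole tissue, fewer cells of a type and less RNA per cell cannot be told apart.

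The bases before the start sites of these 2 marker genes and of the 2 alpha-actins are shown because the myosin and actin pairs carry the exchange described below. They come from RefSeq (GRCm38.p6), begin 250 bases before the RefSeq start, are read 5′ to 3′ on the strand of the gene and stop where GENCODE M21 places an exon of the gene, which leaves out the last 12 bases in Actc1 and the last 34 in Myh6. Capitals mark matches on either strand to 4 motifs: TATAAA (the TATA box), the CArG box bound by SRF, CAGCTG (bound by MyoD and its relatives) and the MEF2 site.
Actc1, cardiac alpha-actin (chr2:114052888-114053125, minus strand): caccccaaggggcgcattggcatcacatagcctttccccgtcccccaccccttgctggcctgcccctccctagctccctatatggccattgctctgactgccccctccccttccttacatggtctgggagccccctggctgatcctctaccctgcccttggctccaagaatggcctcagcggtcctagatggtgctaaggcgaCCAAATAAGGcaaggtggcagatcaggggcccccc
Acta1, skeletal alpha-actin (chr8:123894776-123895025, minus strand): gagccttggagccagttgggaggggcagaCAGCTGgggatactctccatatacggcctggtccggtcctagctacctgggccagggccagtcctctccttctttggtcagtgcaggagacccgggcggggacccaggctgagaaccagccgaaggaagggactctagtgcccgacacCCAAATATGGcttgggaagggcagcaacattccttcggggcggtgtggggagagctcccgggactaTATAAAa
Myh6 (chr14:54966642-54966857, minus strand): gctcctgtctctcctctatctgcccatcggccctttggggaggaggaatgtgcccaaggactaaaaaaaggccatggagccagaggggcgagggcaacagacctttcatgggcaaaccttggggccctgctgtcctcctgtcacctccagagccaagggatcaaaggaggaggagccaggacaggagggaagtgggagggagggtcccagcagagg
Myh4 (chr11:67237562-67237811, plus strand): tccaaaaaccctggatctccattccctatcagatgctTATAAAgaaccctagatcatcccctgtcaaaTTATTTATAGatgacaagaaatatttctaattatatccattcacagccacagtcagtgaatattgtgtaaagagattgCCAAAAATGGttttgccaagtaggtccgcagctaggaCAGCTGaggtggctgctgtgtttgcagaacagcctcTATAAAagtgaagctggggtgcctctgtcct

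Both actin windows held 1 CArG box, beginning 47 bases before the start in Actc1 and 73 in Acta1. Acta1 also held CAGCTG, 221 bases before the start, and TATAAA, 7 bases before the start. The Myh4 window held a CArG box, a MEF2 site, CAGCTG and 3 matches to TATAAA, 1 of them overlapping the MEF2 site. None of the 4 motifs was found in the 250 bases before the RefSeq start of Myh6. The GENCODE position of Myh6 given above starts upstream of this window, and the bases before that start were not searched. Both strands were searched. Among the 27025 genes with a RefSeq promoter, 1.62% held a CArG box in the 250 bases before the start, 3.42% a MEF2 site, 14.72% CAGCTG and 14.33% TATAAA. A match describes the letters only.

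Library totals were 9.44 to 13.8 M counts in heart (median 11.4) and 15.2 to 27.6 M in muscle (median 18.9). Markers of other tissues were counted in some libraries. The 6 lung epithelium markers summed to 78.7 to 327 CPM in muscle and to at most 0.654 CPM in heart, where Sftpb, Sftpa1, Scgb1a1 and Cldn18 were at 0. The 3 liver markers summed to 179 CPM in the heart library of time 22 and to 2.85 to 30.5 CPM in the other heart libraries. In muscle the Schwann cell markers ranged from 77.0 to 473 CPM, white adipocyte markers from 6.72 to 91.3 CPM and tendon markers from 40.4 to 260 CPM, against at most 90.9, 2.85 and 29.1 CPM in heart. Apart from the counts repeated without some of these libraries, the part of these markers' tissues in the results was not tested.

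Of 14490 genes tested, 12519 (86.4%) differed between the tissues at an adjusted p under 0.05 (edgeR quasi-likelihood test with time as a block, Benjamini-Hochberg), 6238 higher in heart and 6281 higher in muscle. In a stricter test against a 2-fold difference, 4395 genes passed (30.3%), 2384 higher in heart (16.5%) and 2011 higher in muscle (13.9%). From here on, "higher" means past this stricter test unless another test is named. The counts of the lists below are to be read against these shares of all genes. A gene was tested when either tissue alone had enough counts. For a gene nearly absent from the other tissue the direction of a call was therefore fixed. Heart and muscle libraries did not overlap at 7468 genes (51.5%), among them 4106 of the 4395. Differences are log2 values, heart minus muscle, with their standard error from the fit. For genes nearly absent from either tissue, such as Mybpc3 and Myh4, this error can be smaller than the counting error. The fitted difference of such genes can also fall short of the ratio of the counts. Gata4 had a fitted difference of 13.10, against a log2 ratio of 14.83. For these genes the ± values are not a measure of precision. All differences are on the scale set by TMM factors, where the median over all genes was -0.0045. With library totals alone that median shifts by 0.28, and with upper-quartile factors by 0.18, so ratios of the printed CPM lie above the fitted differences. The share of the 2-fold calls that were higher in heart was 54.2% with TMM, 63.5% with upper-quartile factors and 68.1% with library totals.

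The counts were repeated without libraries that stood apart, a choice made after seeing the data. Without times 22 (the heart library highest in liver markers), 26 and 54 (the muscle libraries highest in Schwann cell markers) and 38 (with 54, highest in adipocyte markers), 4282 genes passed the 2-fold test, 4132 of them among the 4395. Without times 30, 34 and 42, whose muscle libraries were highest in lung markers, 4283 genes passed, 4203 of them among the 4395. Of the 2011 genes higher in muscle, 36 had a muscle mean at or under 3.89% of their mean in lung, which is the highest such share among the lung markers; 1975 were left without them. The only genes of the lists below among these 36 were the 6 lung markers.

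**Figure D1:**
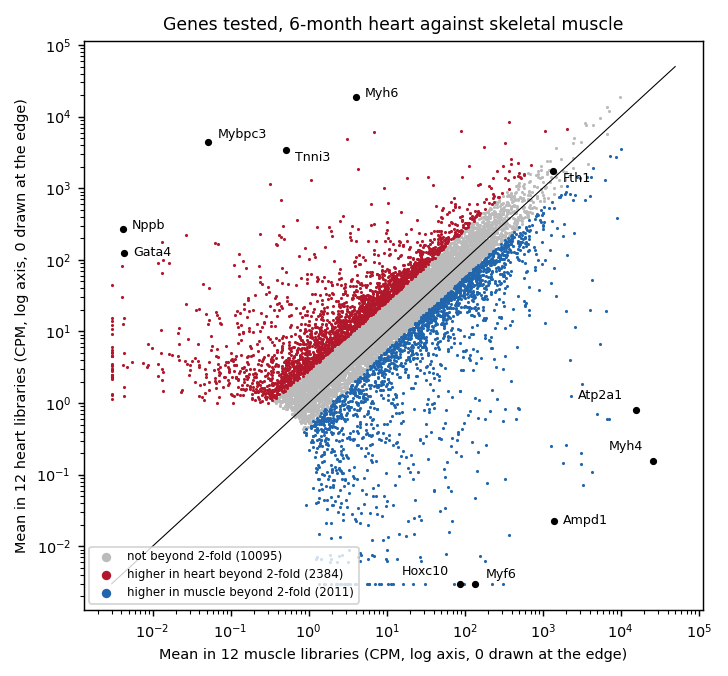
Mean CPM of the 14490 tested genes in the 12 muscle libraries (horizontal, log axis) and the 12 heart libraries (vertical, log axis), with the line of equal CPM. Red points are the 2384 genes higher in heart beyond 2-fold and blue points the 2011 higher in muscle; Myh6 and Mybpc3 lie at the upper left and Myh4, Ampd1 and Atp2a1 at the lower right.

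The myosin motor was built from different genes in the 2 tissues. Of 24 thick filament genes 22 were tested, of which 6 were higher in heart and 15 in muscle; the median difference was -5.74, against -0.0045 over all genes. Per length of exon, Myh6 made up 98.02% ± 0.457 (SD, n = 12) of the 8 sarcomeric heavy chains compared in heart, Myh7 (the slow, or beta, chain) 1.36% ± 0.386 and Myh7b 0.618% ± 0.175. In muscle Myh4 made up 78.1% ± 5.04, Myh1 (fast 2X) 12.4% ± 2.57, Myh2 (fast 2A) 8.44% ± 2.49 and Myh7 1.01% ± 0.614. The difference was 11.99 ± 0.24 for Myh6, -17.50 ± 0.16 for Myh4, -15.45 ± 0.17 for Myh1 and -15.58 ± 0.17 for Myh2. The embryonic chain Myh3, the perinatal chain Myh8 and Myh13, a chain of eye muscles, were also higher in muscle, but none exceeded 11.1 CPM there.

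Myh7, which marks slow skeletal fibres and is also expressed in heart, did not divide the tissues. It had 230.5 to 545 CPM (median 294) in heart and 167 to 965 CPM (median 396) in muscle. The ranges overlapped, heart was higher at 3 of 12 times, and the difference of -0.60 ± 0.24 did not pass the 2-fold test. An overlap of 13.3% of its exonic bases with other genes, Mhrt among them, adds uncertainty. Myh7b, a related slow-type chain, was higher in heart by 3.73 ± 0.18.

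The proteins that bind and regulate myosin were exchanged too. Mybpc3, cardiac myosin-binding protein C, had 3843 to 5203 CPM (median 4545) in heart and 0 to 0.217 CPM (median 0.0181) in muscle, a difference of 15.93 ± 0.18. Mybpc2, the fast skeletal form, had 15.1 to 23.1 CPM (median 19.1) in heart and 5148 to 7703 CPM (median 6303) in muscle, a difference of -8.65 ± 0.10. The slow skeletal form Mybpc1 made up 18.5% ± 5.92 of the family in muscle per length and had at most 0.305 CPM in heart. The regulatory light chain was Myl2 in heart (99.77% ± 0.0945 of its family per length) and Mylpf in muscle (96.05% ± 1.5). The essential light chain was Myl3 in heart (98.8% ± 0.138) and Myl1 in muscle (92.7% ± 2.83). Mylk3, the cardiac kinase of the regulatory light chain, differed by 10.29 ± 0.16, and the skeletal kinase Mylk2 by -12.54 ± 0.13.

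Of the 18 thin filament genes, all tested, 6 were higher in heart and 10 in muscle, with a median of -1.76. Actc1 had 5781 to 7634 CPM (median 6360.4) in heart and 36.1 to 166 CPM (median 82.5) in muscle, a difference of 5.96 ± 0.21. Acta1 had 203 to 564 CPM (median 385) in heart and 7709 to 9641 CPM (median 9065) in muscle, a difference of -4.85 ± 0.12. Neither actin overlapped between the tissues, but each tissue held some of the other form: per length, Acta1 was 6.02% ± 1.15 of alpha-actin in heart and Actc1 0.940% ± 0.396 in muscle.

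Troponin, the calcium switch of the thin filament, was exchanged in all 3 subunits. Tnni3, the cardiac inhibitory subunit, had 2627 to 3999 CPM (median 3430.1) in heart and 0.310 to 0.700 CPM (median 0.497) in muscle, a difference of 12.42 ± 0.10. Tnni2, the fast skeletal one, had 0.726 to 2.54 CPM (median 1.86) in heart and 2646 to 3425 CPM (median 3279) in muscle, a difference of -11.03 ± 0.11. Troponin T, which ties the complex to tropomyosin, was 98.3% ± 0.228 Tnnt2 in heart and 98.2% ± 0.988 Tnnt3 in muscle, per length. Tnnc1, the calcium-binding subunit that heart shares with slow fibres, differed by 4.11 ± 0.28. Its fast counterpart Tnnc2 shares 74% of its exonic bases with Ube2c, so its counts are uncertain. The giant nebulin (Neb) of skeletal thin filaments had 2.74 to 12.1 CPM in heart and 3722 to 6596 CPM in muscle, and its small cardiac relative Nebl had 224 to 425 CPM and 0.969 to 3.17 CPM. Tropomyosin Tpm1 was abundant in both tissues and did not pass the 2-fold test (-0.50 ± 0.06), while Tpm2 was higher in muscle (-7.93 ± 0.11).

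Across 23 pairs of related genes, 1 known for heart and 1 for skeletal muscle, 18 had both members called in opposite directions beyond 2-fold, and in 22 both members kept these opposite signs at all 12 times. The exception was the junctophilins, which hold the surface membrane against the calcium store. Jph2, the form known for heart, was higher in muscle (-1.31 ± 0.06; with library totals -1.03, which did not pass), as was Jph1 (-4.92 ± 0.08). In the other 4 pairs 1 member did not pass the 2-fold test: Actn2 (0.85 ± 0.09), the enolase Eno1 (0.61 ± 0.04), leiomodin Lmod3 (-0.66 ± 0.05) and the phosphoglycerate mutase Pgam2 (-1.08 ± 0.06). Of the 46 genes in the pairs, 37 had a RefSeq promoter. The 7 motifs searched were found as follows. The CArG box was in 2 of 15 muscle members and 3 of 22 heart members, the MEF2 site also in 2 and 3, and TATAAA in 4 and 1. CATTCC was in 6 of 15 and 8 of 22 (14.36% of all promoters), AGATAA in 0 and 5 (11.43%) and CACGTG in 1 and 1 (6.86%). CAGCTG was in 9 of 15 muscle members and 5 of 22 heart members; over all genes it was found in 18.37% of those higher in muscle and 16.46% of those higher in heart.

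**Figure D2:**
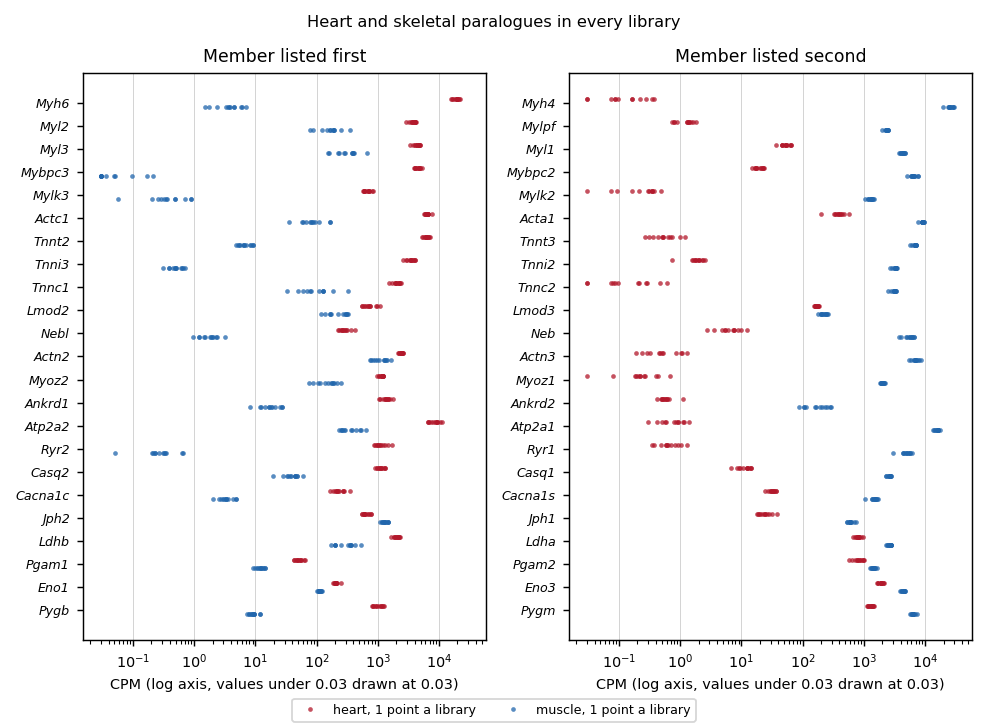
CPM (log axis) of the 23 pairs of related genes in each of the 12 heart (red) and 12 muscle (blue) libraries, 1 point a library, with the member known for heart in the left panel and its partner on the same row of the right panel. Mean levels are higher in heart for the left members and higher in muscle for the right members, except for Jph2, which is higher in muscle; for Lmod3 the ranges of the tissues overlap.

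The Z-disc and M-band anchor the filaments. Of 30 titin, Z-disc and M-band genes, all tested, 5 were higher in heart, 14 were higher in muscle and 11 passed in neither direction, with a median of -1.06. Of all genes tested, 16.5% were higher in heart and 13.9% in muscle. Titin (Ttn), the spring of the sarcomere, had 2692 to 5276 CPM (median 3379.7) in heart and 7968 to 12028 CPM (median 10563) in muscle, a difference of -1.79 ± 0.07. Alpha-actinin 2 (Actn2), which cross-links actin at the Z-disc, did not pass the 2-fold test, whereas Actn3, its fast-fibre form, had 0.193 to 1.27 CPM in heart and 5516 to 8679.8 CPM in muscle. Ankrd1, a stress-responsive titin partner, was higher in heart (6.01 ± 0.18), as was the muscle LIM protein Csrp3 (3.87 ± 0.25). Ankrd2, the skeletal relative of Ankrd1, was higher in muscle (-8.49 ± 0.13). Desmin (Des, -1.07 ± 0.05) and myomesin 1 (Myom1, -0.66 ± 0.05) did not pass the 2-fold test.

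Of 31 calcium handling genes 30 were tested, 7 higher in heart and 19 higher in muscle (16.5% and 13.9% of all genes tested), with a median of -2.87. Ryr2, the calcium release channel of the cardiac store, had 869 to 1714 CPM (median 1069) in heart and 0.0516 to 0.656 CPM (median 0.291) in muscle. Ryr1, the skeletal channel, had 0.342 to 1.27 CPM (median 0.627) in heart and 3049.7 to 6071 CPM (median 5035) in muscle. The differences were 11.49 ± 0.13 and -13.09 ± 0.11, with no overlap between tissues for either gene. Calsequestrin, which holds calcium inside the store, was 98.5% ± 0.365 Casq2 in heart and 98.9% ± 0.308 Casq1 in muscle, per length. The pump that refills the store was 99.98% ± 0.00773 Atp2a2 in heart and 98.6% ± 0.540 Atp2a1 in muscle.

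Regulators of the pump and its trigger differed as well. Phospholamban (Pln), which restrains the cardiac pump, had 4077 to 5360.1 CPM in heart and 1.85 to 5.43 CPM in muscle; 64.7% of its exonic bases are shared with other genes, Cep85l among them. Myoregulin (Mrln), a skeletal inhibitor of the pump, had 0.726 to 1.71 CPM in heart and 57.02 to 85.1 CPM in muscle. Parvalbumin (Pvalb), the calcium buffer of fast fibres, had 0 to 0.349 CPM in heart and 2611 to 3404 CPM in muscle. The voltage-gated calcium channel was Cacna1c in heart (5.81 ± 0.11) and Cacna1s in muscle (-5.81 ± 0.07). Stac3 and Jsrp1, which take part in coupling Cacna1s to Ryr1, differed by -8.94 ± 0.11 and -9.51 ± 0.09. Slc8a1, the exchanger that moves calcium out of the cell, was higher in heart by 3.60 ± 0.09. Hrc, a calcium-binding protein of the store, did not pass the 2-fold test (0.28 ± 0.05).

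Of 24 cardiac channel and junction genes 23 were tested, 17 higher in heart and 1 higher in muscle, with a median of 4.36. Gja1, connexin 43 of the gap junctions, had 331 to 608 CPM (median 479.6) in heart and 11.4 to 23.1 CPM (median 15.03) in muscle. N-cadherin (Cdh2, 7.47 ± 0.13), desmoplakin (Dsp, 10.18 ± 0.46) and desmoglein 2 (Dsg2, 8.94 ± 0.19) of the intercalated disc were higher in heart, and so were Kcnd2 (8.50 ± 0.17) and Kcnip2 (8.57 ± 0.12), which form an early outward potassium channel. Dsp reached 7.61 CPM in 1 muscle library against a muscle median of 0.505 CPM. Kcnj5, a channel opened by the vagus nerve, had 78 to 113 CPM in heart and 3 counts in all muscle libraries, a ratio of 7089 (95% counting interval 2425 to 34380), which covers counting error only. The 1 gene higher in muscle was the inward rectifier Kcnj12 (-2.02 ± 0.10).

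Of 16 genes of skeletal excitability and the neuromuscular junction 15 were tested, 10 higher in muscle and none in heart, with a median of -4.43. Scn4a, the skeletal sodium channel, differed by -4.99 ± 0.16, and Clcn1, the chloride channel that steadies the fibre membrane, by -4.55 ± 0.11. Musk, the receptor kinase that organises the junction, differed by -8.09 ± 0.18. Chrna1, a subunit of the acetylcholine receptor, had 0 to 0.241 CPM in heart and 13.9 to 24.5 CPM in muscle. Chrnd, another subunit, had 1.65 to 4.33 CPM in muscle and no heart count. Taking 3 counts over the 12 heart libraries as the floor, it was at least 141-fold higher in muscle.

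Transcription factors of cardiac fate were counted mainly in heart. Of 13 cardiac factors 11 were tested and 10 were higher in heart, with a median of 7.10. Those nearly absent from muscle entered the test by their heart counts, so the direction of their calls was fixed. Gata4 had 97.3 to 153 CPM (median 124) in heart and 1 count in all muscle libraries, a ratio of 29230 (95% counting interval 5245 to 1154000). Nkx2-5 had 62.1 to 99.7 CPM (median 83.1) in heart and 1 muscle count, a ratio of 18610 (95% counting interval 3340 to 735200). Irx4, a factor of the ventricles, had 34.1 to 52.02 CPM (median 46.7) in heart and no muscle count, at least 3488-fold higher by the same floor of 3 counts. The T-box factor Tbx5 and the helix-loop-helix factor Hand2 differed by 7.10 ± 0.13 and 8.55 ± 0.16. Tbx3, known for the conduction system, did not pass the 2-fold test (0.62 ± 0.12).

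All 13 skeletal factors tested, of 15, were higher in muscle, with a median of -8.30 (-7.97 with genes that have no heart count at their bound). Those nearly absent from heart entered the test by their muscle counts, so the direction of their calls was fixed. Myf6, the MyoD relative of mature fibres, had 110.0 to 158 CPM (median 137) in muscle and no heart count, at least 6297-fold higher. Myod1 itself had 18.6 to 70.2 CPM (median 40.2) in muscle and 0 to 0.203 CPM in heart. Tbx15, a factor of fast fibres, had 392 to 526 CPM (median 428) in muscle and 0.184 to 1.20 CPM in heart. Lbx1, which guides muscle precursors into the limb, differed by -11.42 ± 0.14. Pax7, the satellite cell factor, had 2.24 to 3.73 CPM (median 3.11) in muscle and no heart count, at least 142-fold higher.

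Of 11 listed factors that both muscles use, 10 were tested, 1 was higher in heart, 3 were higher in muscle and 6 passed in neither direction, with a median of -0.68; 30.3% of all genes tested passed. Mef2c had 79.1 to 102 CPM (median 84.4) in heart and 844 to 1107 CPM (median 986) in muscle, a difference of -3.80 ± 0.05. Its relatives Mef2a (-0.43 ± 0.07) and Mef2d (-0.92 ± 0.05), and Srf (-1.06 ± 0.05), did not pass the 2-fold test.

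Hox genes, which record position along the body axis and limb, were counted mostly in muscle. Of 39 listed 23 were tested, 20 higher in muscle and none in heart, with a median of -6.79. All tested genes of the Hoxa cluster on chromosome 6 (8 of 8), the Hoxc cluster on chromosome 15 (7 of 7) and the Hoxd cluster on chromosome 2 (3 of 3) were higher in muscle, against 2 of 5 of the Hoxb cluster on chromosome 11. The highest heart mean was 0.701 CPM in Hoxa, 0.0607 CPM in Hoxc and 1.47 CPM in Hoxd. Genes nearly absent from heart entered the test by their muscle counts, so the direction of their calls was fixed. Hoxc10 had 77.4 to 97.4 CPM (median 85.95) in muscle and no heart count, at least 3987-fold higher. Hoxa10 had 22.4 to 32.5 CPM (median 28.01) in muscle and 1 heart count, a ratio of 3836 (95% counting interval 688 to 151600). Hoxb2 (1.13 ± 0.19), Hoxb3 (-0.98 ± 0.18) and Hoxb4 (-0.55 ± 0.18) did not pass the 2-fold test, although Hoxb2 passed as higher in heart with library totals (1.41) and upper-quartile factors (1.31); parts of Hoxb2 and Hoxb3 are shared with Hoxb3os.

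**Figure D3:**
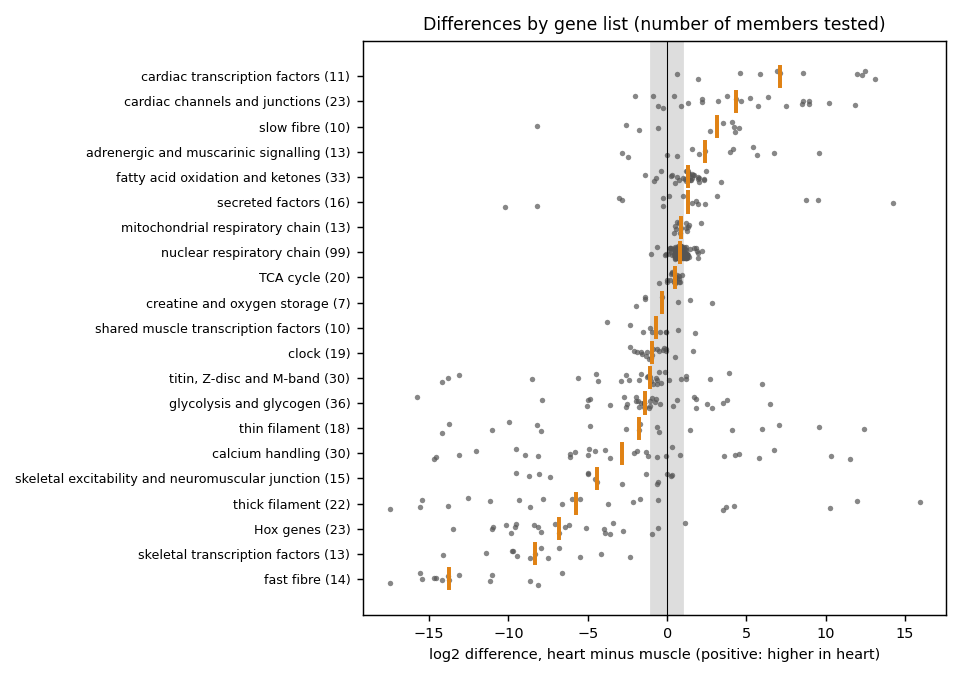
The log2 difference, heart minus muscle, of each tested member of the 21 lists (1 point a gene, number tested in brackets), with the list median as an orange bar and differences within 2-fold shaded. Medians run from -13.8 for fast fibre genes to 7.10 for cardiac transcription factors, and most respiratory chain and TCA cycle genes lie within the shaded band.

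Among genes of fuel use, all 33 genes of fatty acid oxidation and ketone use were tested, 22 higher in heart and 1 higher in muscle, with a median of 1.32. Cd36, which takes up fatty acids, had 1558 to 2109.8 CPM (median 1725) in heart and 282 to 516 CPM (median 369) in muscle, a difference of 1.97 ± 0.07. Lpl, which frees them from circulating fat, had 5679.6 to 7079.9 CPM (median 6406) in heart and 769 to 1549.8 CPM (median 1039) in muscle, a difference of 2.33 ± 0.09. Fabp3, their carrier in the cytosol, differed by 1.99 ± 0.11. Among the enzymes of the oxidation spiral, Acaa2 differed by 2.32 ± 0.09, Acadl by 1.58 ± 0.08 and Hadha by 1.45 ± 0.07. The 1 gene higher in muscle was Ucp3, a mitochondrial carrier, at 27.8 to 152 CPM (median 56.8) in heart and 76.1 to 253 CPM (median 120.0) in muscle; these ranges overlapped, although muscle was higher at all 12 times, and it did not pass with library totals, upper-quartile factors or without the time block.

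Most genes of the respiratory chain were higher in heart at an adjusted p under 0.05 but did not pass the 2-fold test. Over all genes tested, 86.4% differed at that adjusted p in either direction, and 16.5% were higher in heart beyond 2-fold. The 99 nuclear genes were chosen by their symbols, which also took in assembly factors of complex I (Ndufaf1 to Ndufaf8). Of the 99, 94 were higher in heart and 3 higher in muscle at an adjusted p under 0.05. The lowest values were of assembly factors, Ndufaf5 (-1.01) and Ndufaf6 (-0.63). Beyond 2-fold were 22, all in heart. The median was 0.78 with TMM factors, 0.96 with upper-quartile factors and 1.06 with library totals. Of the 99, 77 lay between 0.5 and 1.5. Pseudogenes or non-coding genes were 7 of the 99 and 4 of the 22. Cytochrome oxidase has ubiquitous and muscle forms of some subunits: the ubiquitous Cox6a1 (1.96 ± 0.09) and Cox8a (1.96 ± 0.07) were higher in heart, while the muscle forms Cox6a2 (0.94 ± 0.08) and Cox8b (0.73 ± 0.09) did not pass the 2-fold test with TMM factors. The muscle form Cox7a1 was higher in heart (1.44 ± 0.09). Of the 13 mitochondrially encoded genes, 12 were higher in heart at an adjusted p under 0.05 and 1, the sparsely counted mt-Nd4l, beyond 2-fold; the median was 0.88 with TMM factors and 1.17 with library totals. None of the 20 TCA cycle genes passed the 2-fold test with edgeR (0 at an unadjusted p under 0.05, and 0 with DESeq2), and 17 were higher in heart at an adjusted p under 0.05, with a median of 0.49.

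Glycolysis and glycogen genes leaned to muscle: of 37 listed 36 were tested, 20 higher in muscle and 8 higher in heart, with a median of -1.42. Of all genes tested, 13.9% were higher in muscle and 16.5% in heart. Glycogen phosphorylase had forms in both directions. Its muscle form Pygm had 1126 to 1482 CPM (median 1318) in heart and 5627 to 7371 CPM (median 6351) in muscle. Its brain form Pygb had 815 to 1280.1 CPM (median 1021) in heart and 7.41 to 12.03 CPM (median 8.92) in muscle, and made up 34.3% ± 2.02 of the family in heart per length. In phosphofructokinase, the muscle form Pfkm differed by -1.83 ± 0.05, the liver form Pfkl by 3.51 ± 0.06 and the platelet form Pfkp by 2.84 ± 0.08. Hexokinase 1 (Hk1) differed by 3.76 ± 0.08. Lactate dehydrogenase was 84.1% ± 1.11 Ldhb in heart and 80.1% ± 5.96 Ldha in muscle, and the lactate carriers were split between Slc16a1 (1.81 ± 0.09) and Slc16a3 (-7.87 ± 0.19). Ampd1, the muscle AMP deaminase, had 1194 to 1607 CPM (median 1392) in muscle and 3 counts in all heart libraries, a ratio of 63950 (95% counting interval 21880 to 310100).

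Of 7 genes of creatine and oxygen storage, 2 were higher in heart and 3 in muscle (16.5% and 13.9% of all genes tested). Myoglobin (Mb), which stores oxygen and shares 31.9% of its exonic bases with other genes, was higher in heart (1.42 ± 0.10), and Ckm, muscle creatine kinase, higher in muscle (-1.95 ± 0.05). Of 14 genes of adrenergic and muscarinic signalling 13 were tested, 9 higher in heart and 2 higher in muscle, with a median of 2.36. Adrb1, the main beta receptor of the heart, differed by 5.41 ± 0.14. Chrm2, the receptor of the vagus nerve, had 83.2 to 195 CPM (median 119) in heart and 0.0491 to 0.396 CPM (median 0.106) in muscle.

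Of 21 secreted factors 16 were tested, 8 higher in heart and 4 higher in muscle (16.5% and 13.9% of all genes tested), with a median of 1.29. Nppb, a natriuretic peptide, had 84.3 to 483 CPM (median 305) in heart and 1 muscle count, a ratio of 61700 (95% counting interval 11070 to 2437000). Nppa, its atrial relative, had 160.4 to 298 CPM in heart and 0 to 0.724 CPM in muscle, with 61.5% of its exonic bases shared with another gene. Myostatin (Mstn), which limits skeletal muscle growth, had 0.0807 to 1.84 CPM (median 0.559) in heart and 97.6 to 207 CPM (median 141) in muscle. Musclin (Ostn) had 0 to 0.106 CPM in heart and 42.5 to 101 CPM in muscle. Fndc5, which encodes the irisin precursor, was higher in heart (1.81 ± 0.10).

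The 7 atrial markers summed to 170 to 310 CPM in heart and 30.8 to 67.5 CPM in muscle; 4 were tested, of which Nppa was higher in heart and the other 3 were higher in muscle. Nppa, given above, made up most of the sum in heart, where Myl7 reached 3.81 CPM, Mybphl 0.526 CPM, Bmp10 0.224 CPM and sarcolipin (Sln) 0.376 CPM. Markers of macrophages summed to 224 to 486 CPM in heart and 51.9 to 122 CPM in muscle, and 7 of 8 were higher in heart. Endothelial markers summed to 1100 to 1750 CPM in heart and 348 to 592 CPM in muscle, with 5 of 10 higher in heart. Erythroid markers, at 729 to 2090 against 127 to 334 CPM, were higher in heart at 5 of 5, and mesothelial and epicardial markers, at 21 to 67.2 against 0.254 to 2.03 CPM, at 3 of 3. Of 8 fibroblast markers 2 were higher in heart and 6 passed in neither direction, while 16.5% of all genes tested were higher in heart. Among the 2 was Tcf21, a factor of epicardium-derived fibroblasts (9.88 to 16.3 CPM in heart, 0.0569 to 1.30 CPM in muscle). None of 7 smooth muscle markers passed the 2-fold test with edgeR (1 at an unadjusted p under 0.05, and 0 with DESeq2). Cidea, a lipid droplet protein known from brown fat, had 40.5 to 61.04 CPM in heart and 0.451 to 1.52 CPM in muscle, while Ucp1, the defining gene of brown fat, reached 0.46 CPM in heart. The satellite cell markers summed to at most 0.106 CPM in heart and to 31.3 to 50.5 CPM in muscle.

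**Figure D4:**
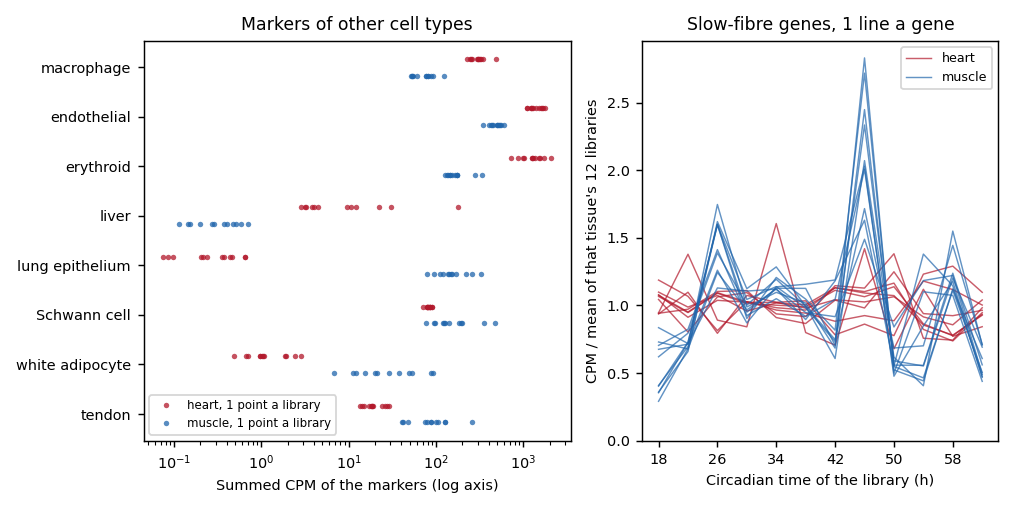
Left, summed CPM (log axis) of markers of 8 other cell types and tissues in each heart (red) and muscle (blue) library; lung epithelium is at 78.7 to 327 CPM in muscle, and 1 heart library reaches 179 CPM of liver markers. Right, CPM of the slow fibre genes over the mean of that tissue's 12 libraries, by circadian time, 10 genes in muscle and 9 in heart (without Tnni1, which is near 0 there); all 10 muscle lines are highest at time 46.

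All 14 fast fibre genes were higher in muscle, with a median of -13.8. For those nearly absent from heart this direction was fixed, because they entered the test by their muscle counts. Of 10 slow fibre genes 6 were higher in heart, namely Myl2, Myl3, Tnnc1, Atp2a2, Casq2 and Myoz2, which heart and slow fibres share. Tnnt1 (-2.62 ± 0.24), Tnni1 (-8.23 ± 0.16) and Tpm3 (-1.79 ± 0.21) were higher in muscle. In muscle all 10 were highest at time 46, and 6 of the 10 were lowest at time 18. The highest muscle library exceeded the lowest by 2.77 times for Atp2a2 and 9.74 times for Tnnc1, against 1.66 and 1.58 times in heart.

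Outside the lists, the most abundant genes with a log2 difference of at least 3 were read off in each direction. The first in heart was Fhl2, a LIM protein of cardiac sarcomeres, with 1744 to 2164 CPM (median 1875) in heart and 2.04 to 10.02 CPM (median 4.06) in muscle. Others of the 10 were Myzap of the intercalated disc (6.33 ± 0.08), Ndrg4 (6.98 ± 0.10) and the potassium channel Kcnk3 (8.71 ± 0.09). The first in muscle was Car3, carbonic anhydrase 3, with 0.374 to 18.8 CPM (median 2.57) in heart and 1896 to 2568 CPM (median 2289) in muscle. Others were Fhl1, a relative of Fhl2 (-3.42 ± 0.11), the intermediate filament protein Synm (-6.96 ± 0.10), Bin1, which shapes T-tubules (-6.63 ± 0.07), Klhl41 (-3.41 ± 0.07) and the phosphorylase kinase subunit Phkb (-3.75 ± 0.08). At the other end, the 95% interval of the difference lay within 0.25 of 0 at 1261 genes. Among the 10 most abundant of these were the ferritin chain Fth1 (0.04 ± 0.05), the ribosomal protein Rps2 (0.05 ± 0.05), Nipsnap2 (0.13 ± 0.05) and the RNA-binding protein Hdlbp (0.09 ± 0.06). These differences hold on the TMM scale; library totals would add about 0.28 to each.

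The daily rhythm was compared with a 24 h cosine fitted in each tissue. In heart 1417 genes (9.78%) and in muscle 741 genes (5.11%) had a rhythm at an adjusted p under 0.05, and 282 had one in both. These counts rest on single libraries: the heart count was 2424 without time 22, 824 without 26, 904 without 50, 691 without 58 and 804 without 62, and the muscle count was 491 without time 26. Without times 22, 26, 38 and 54 they were 647 and 252, and without times 30, 34 and 42 they were 777 and 683. Among the 282 genes the peak in heart came earlier by a median of 0.70 h, 177 peaked within 2 h of each other, and the median log2 amplitude was 0.384 in heart and 0.371 in muscle.

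The core clock is a loop in which Arntl and Clock drive Per, Cry and Nr1d genes that repress them in turn. Of its 19 listed genes, all tested, 18 had a rhythm in heart, 16 in muscle and 15 in both. Arntl had 1.69 to 37.2 CPM (median 11.4) in heart and 10.4 to 63.5 CPM (median 36.3) in muscle and peaked at 0.340 h and 23.8 h of the 24 h cycle. Its amplitudes were 2.24 ± 0.18 and 1.29 ± 0.14. A joint test of amplitude and phase did not pass (adjusted p = 0.143, edgeR), but passed with DESeq2 (adjusted p = 0.00688) and without time 54 (adjusted p = 0.00313, edgeR). Npas2, which can stand in for Clock, peaked at 1.12 h in heart and 1.26 h in muscle. In mean level, Arntl, Rora, Tef, Bhlhe40 and Bhlhe41 were higher in muscle and Npas2 was higher in heart. Arntl (-1.56 ± 0.19 with TMM) no longer passed the 2-fold test with library totals.

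The test of the rhythm difference takes amplitude and phase (cosine and sine) together, so its p-values do not test the amplitudes alone. It called 80 genes (0.552%), with 1755 at an unadjusted p under 0.05. Of the 80, 55 had a rhythm in heart, 45 in muscle and 20 in both. The count was 48 without time 26, 53 without time 34, 51 without time 58, and 7 without times 22, 26, 38 and 54, 6 of which were among the 80. Without times 30, 34 and 42 it was 32, with 23 among the 80.

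Clock genes were among those called in this test. Nr1d1, which represses Arntl, had 16.8 to 169.9 CPM (median 58.1) in heart and 39.4 to 282 CPM (median 129) in muscle. It peaked at 7.66 h in heart and 5.30 h in muscle, with amplitudes of 1.61 ± 0.09 and 1.37 ± 0.10 (adjusted p = 0.000461, edgeR); 8.50% of its exonic bases are shared with Thra. Nr1d2, its relative, had amplitudes of 1.07 ± 0.07 in heart and 0.49 ± 0.06 in muscle (adjusted p = 0.00160). Tef, an output factor of the clock, had 0.83 ± 0.06 and 0.32 ± 0.06 (adjusted p = 0.00462). Without times 22, 26, 38 and 54 Nr1d1, Nr1d2 and Tef did not keep an adjusted p under 0.05, with adjusted p-values of 0.0548, 0.0925 and 0.263 (edgeR). Without times 30, 34 and 42 these 3 genes kept it.

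Outside the clock list, Slc25a30, a mitochondrial carrier, had the smallest p. It had 9.86 to 13.6 CPM (median 11.8) in heart and 17.5 to 115 CPM (median 45.9) in muscle. Its muscle level was low at times 26 and 54 and high at times 18, 38 and 62, while heart stayed nearly level. The amplitude was 0.08 ± 0.07 in heart and 1.35 ± 0.10 in muscle (adjusted p = 7.6e-06, edgeR). Nrip1, a corepressor of nuclear receptors, had amplitudes of 0.21 ± 0.08 in heart and 0.94 ± 0.08 in muscle (adjusted p = 0.000337), and the kinase Dyrk2 0.05 ± 0.06 and 0.65 ± 0.07 (adjusted p = 0.00160). Without times 22, 26, 38 and 54, Slc25a30 kept an adjusted p under 0.05 (0.0124), and Nrip1 and Dyrk2 did not (0.0925 each). Gadd45g, a stress-response gene, had amplitudes of 0.51 ± 0.10 and 0.48 ± 0.10 and peaked at 19.3 h in heart and 9.65 h in muscle (adjusted p = 0.000964).

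**Figure D5:**
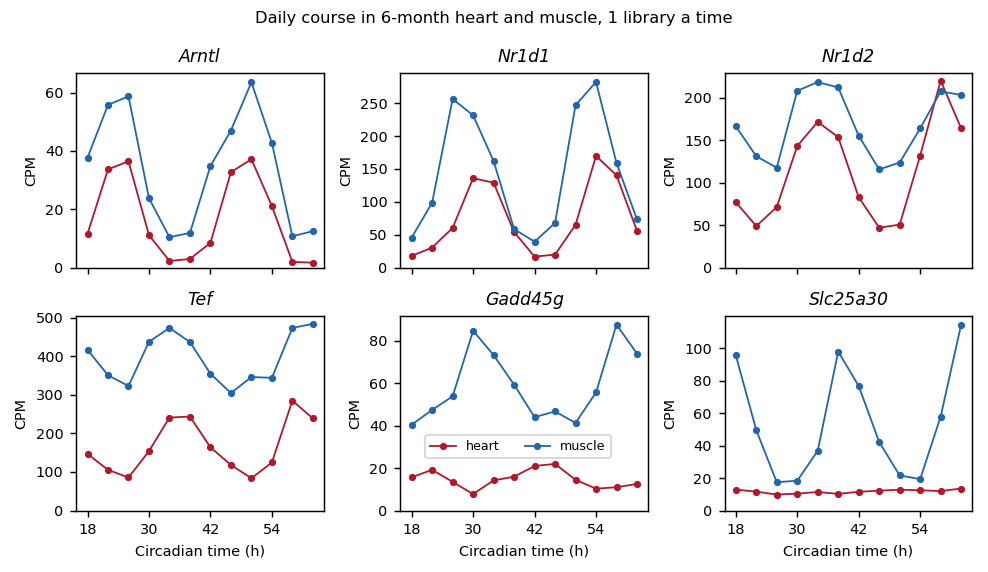
CPM of 6 genes in each heart (red) and muscle (blue) library by circadian time in hours, 1 library a time, with axes from 0. The fitted peak of Nr1d1 is at 5.30 h in muscle and 7.66 h in heart, the fitted log2 amplitudes of Nr1d2 and Tef are larger in heart, and Slc25a30 reaches 115 CPM in muscle while heart stays at or under 13.6 CPM.

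The same contrast was made in libraries of 18 and 27 months, which share no library with that of 6 months. At 18 months 14629 genes were tested and 4481 passed the 2-fold test; of the calls at 6 months 4308 were tested, 4307 had the same sign and 3834 passed again. At 27 months 14481 genes were tested and 4546 passed; of the calls at 6 months 4213 were tested, 4191 had the same sign and 3465 passed again. Muscle libraries of 27 months were shallower, with 3.60 to 18.1 M counts. Myh7 differed by -0.60 ± 0.24 at 6 months, 0.63 at 18 months and 1.85 at 27 months, and the difference between ages was not tested. The median of the nuclear respiratory chain was 0.78, 0.45 and 0.21 at the 3 ages and that of the mitochondrially encoded genes 0.88, 0.55 and 0.91. Fatty acid oxidation stood at 1.32, 1.26 and 1.07, and fast fibre genes at -13.8, -13.4 and -13.8. Differences of these medians between ages were not tested either.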

How the data were processed

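RNA was extracted with Trizol and made into poly(A) libraries with an Illumina kit, per the labels' protocols. The authors deposited whole-number counts per gene symbol, and HISAT2, HTSeq, GRCm38 and mm10 are named in the submitters' processing notes without versions or roles; whether strand was used in counting is not given in the sources used here, so overlapping and antisense genes cannot be separated. Positions and exonic lengths came from GENCODE M21 (GRCm38), promoter bases from RefSeq. Genes were kept by filterByExpr with a minimum count of 10, scaled by TMM and fitted with edgeR 4.0.16 (limma 3.58.1, R 4.3.3), with circadian time as a block; the 2-fold test was glmTreat against a log2 difference of 1. Rhythms were tested with a 24 h cosine and sine in each tissue. All tests were two-sided, with Benjamini-Hochberg adjustment at 0.05 over all genes tested. The fits were tested on simulated data. Amplitudes and peaks were read from the same curve fitted by least squares to log2 CPM (prior count 2). DESeq2 1.42.0, other factors, no filter, no time block, thinned counts and left-out times were alternatives. Tables and plots used python 3.11.15, pandas 2.3.3, numpy 2.4.6, scipy 1.17.1 and matplotlib 3.10.9. Counting intervals and floors cover counting error only. The libraries differed by more than sampling noise, and none was counted as a repeat. Genes are named as members of lists, as the 10 most abundant outside them with a log2 difference of at least 3, as those of largest difference, as the 10 of smallest rhythm p and as the 10 most abundant with an interval within 0.25. Some genes that these rules name are not reported here. The members, lists and tests were chosen with earlier results of these data known.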

Additional observations from a re-analysis of the deposited data

Results flagged for a closer look

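A test of the difference between the tissues' daily rhythms (edgeR, adjusted p under 0.05) called 80 genes. Among those named, the adjusted p was 7.6e-06 for Slc25a30, 0.000306 for Arrdc3, 0.000337 for Lonrf1, 0.000337 for Nrip1, 0.000461 for Nr1d1, 0.000562 for Cep85l, 0.000562 for Zhx2, 0.000964 for Gadd45g, 0.00160 for Nr1d2, 0.00160 for Dyrk2 and 0.00462 for Tef. Arrdc3 had log2 amplitudes of 0.36 ± 0.10 in heart and 0.86 ± 0.09 in muscle, with peaks at 10.1 h and 17 h. Lonrf1 had amplitudes of 0.62 ± 0.03 and 0.45 ± 0.08, with peaks at 14.7 h and 20.04 h. Cep85l, which shares 7.30% of its exonic bases with other genes, Pln among them, had an adjusted p of 0.216 without times 22, 26, 38 and 54, and Zhx2 had amplitudes of 0.11 ± 0.04 and 0.47 ± 0.05. Without those times Arrdc3 (0.0504), Lonrf1 and Zhx2 (0.134 each) did not keep an adjusted p under 0.05 (edgeR). The sets of times left out were chosen by the marker sums. Slow fibre genes were also read by library, and all 10 were highest in the muscle library of time 46. That time is in neither set, and leaving it out alone gave 101 rhythm differences. Beyond these readings, groups of 12 libraries were not searched for single outlying samples.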

How the results depend on the processing

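The 2-fold count stayed within 1.5 times of 4395 under every alternative run: 4394 with median-of-ratios factors, 4714 with library totals, 4585 with upper-quartile factors, 6429 without a filter, 3916 with DESeq2, 4284 without the time block, 4371 with a cosine in its place, 4194 with thinned counts and 4314 to 4498 with each time left out. All main 2-fold calls that were tested kept their sign in each of these settings. The rhythm counts moved more. The count of rhythm differences (80) was 659 without a filter, 282 with DESeq2, 37 with a linear trend, 48 to 101 with each time left out, 7 without times 22, 26, 38 and 54 and 32 without times 30, 34 and 42. The heart count (1417) was 2300 without a filter, 617 with a trend, 691 to 2424 with each time left out, 647 without times 22, 26, 38 and 54 and 777 without times 30, 34 and 42. The muscle count (741) was 1549 without a filter, 491 to 921 with each time left out and 252 without times 22, 26, 38 and 54. The sets of 4 and 3 times were chosen after seeing the data; fewer libraries enter those fits, and otherwise the cause was not tested. Among the 163 genes with values in the text no log2 difference changed sign; 6 lost and 7 gained the 2-fold call in at least 1 setting. Replicate numbers follow accession order, which runs with circadian time in each group. Pairing by those numbers is therefore the same as pairing by circadian time, the block of the fit. Depth limits genes with few counts, above all in heart, whose totals were lower.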
